A study of Mus musculus with 4 samples.

Results

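The regions described here are the centromere-proximal 5 Mb of the 19 mouse autosomes. They were taken from the population-based Repli-seq profile as the 50 kb bins that start less than 5 Mb above the lowest bin of each autosome. This gave 1897 of the 47928 autosomal bins with a value, and of 51427 deposited bins in all. The rule uses position alone. F121-9 cells, a diploid hybrid cas/129 mouse embryonic stem cell (mESC) line, were grown in N2B27 with 2i and LIF, which hold mESCs in the naive pluripotent state. A pulse of BrdU, a thymidine analog, marked the DNA that was being copied, and the cells were then sorted into an early and a late S-phase fraction. There were 2 libraries of each fraction. The authors deposited a single value per bin, RT, which is log2 of the RPM (reads scaled to a fixed total per library) of the early fraction over that of the late one, so that a bin with RT above 0 is called early here and one with RT at or below 0 late. The deposited column names no replicate, so the value is taken here to combine the libraries of both replicates. No error between replicates can therefore be given for any bin, the number of reads behind a bin is unknown, and every difference below is a description of 1 profile of 1 cell line, with no test. The SD given beside a mean is the spread over autosomes. The deviation of single bins from their neighbors corresponded to a noise SD of 0.136 log2, a measure of unevenness along the chromosome that holds no difference between cultures.

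Mouse autosomes carry their centromere at one end. There, long arrays of minor satellite DNA hold the kinetochore, and longer arrays of major satellite DNA beside them form pericentromeric heterochromatin, which clusters into chromocenters and is rich in trimethylated H3K9. Most of these arrays are not in the mm10 assembly, so the proximal windows begin at the edge of a gap and hold the first unique sequence of each chromosome arm. Replication timing follows domains: gene-rich, GC-rich and active chromatin tends to replicate early, and AT-rich chromatin at the nuclear periphery tends to replicate late.

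In some windows the sequence at the gap edge holds satellite DNA or other repeats. The gap has no assembled sequence, so the distance to the centromeric arrays is not measured. The first bin with a value started between chr9:2950001 and chr10:3100001 on all 19 autosomes, and the first assembled base lay in that bin or in the next one. On chromosome 9 the first assembled bin, chr9:3000001-3050000, matched itself best at a shift of 234 bp, the unit length of the mouse major satellite, at 59.9% of bases. Of all autosomal bins it had the highest match at this shift, 59.8% against a median of 26.3%. The pair of neighboring units below, read from the plus strand of GRCm38 (mm10) at chr9:3000235-3000468 and chr9:3000469-3000702, is shown because it is the sequence of the array itself. Capitals in the second unit mark the bases that differ from the first, and the units were 96.6% identical.
Satellite unit 1: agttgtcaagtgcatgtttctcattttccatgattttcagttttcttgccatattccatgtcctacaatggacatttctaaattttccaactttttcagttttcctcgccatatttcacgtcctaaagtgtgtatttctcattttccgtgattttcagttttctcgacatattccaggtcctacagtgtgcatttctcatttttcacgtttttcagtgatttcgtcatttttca
Satellite unit 2: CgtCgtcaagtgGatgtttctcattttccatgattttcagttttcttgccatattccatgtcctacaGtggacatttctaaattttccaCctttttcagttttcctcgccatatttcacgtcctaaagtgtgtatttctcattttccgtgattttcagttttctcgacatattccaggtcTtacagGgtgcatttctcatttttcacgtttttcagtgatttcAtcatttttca
Of 212 pairs of neighboring units in this bin, 78 were over 80% identical, with a median identity of 91.9%. The window of chromosome 11 begins directly at a related sequence. Its first 60 assembled bases, chr11:3100001-3100060 on the plus strand, matched a stretch of the chromosome 9 bin at 45 of 60 positions without gaps, while the first 60 bases of the other autosomes matched at 46.7% to 55.0%.
First bases of chromosome 11: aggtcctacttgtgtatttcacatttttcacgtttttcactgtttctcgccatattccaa
A different short repeat lies in the first assembled bins of chromosomes 3, 4 and 17. These bins matched themselves best at a shift of 21 bp, at 48.3%, 46.6% and 53.2% of bases. The unit is shown from chr17:3034741-3034761 on the plus strand.
21-bp repeat: acaccacagtggagcactgtg
Exact copies of this unit, counted on both strands, numbered 148 on the autosomes, and 103 of them lay in the proximal windows. They were in the first assembled bins of chromosome 3 (21 copies), chromosome 4 (27) and chromosome 17 (47) and in the bin chr16:3200001-3250000 (8). Outside the windows 3 bins held a copy, and the one with most, 40, was chr7:64050001-64100000.

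In 5 of the windows, on chromosomes 4, 6, 9, 17 and 18, the first bin had a value although it holds no assembled base. These were the 5 such bins of all autosomes. Their RT was -0.19, -1.09, -3.94, 0.23 and -0.09, in the order of the chromosomes. Moved by 1 bin down or up the chromosome, the values would leave 51 or 45 such bins. The deposited positions were therefore used as they are. How reads came to be counted in the 5 bins is not given in the sources used here.

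The bins that hold these repeats did not share one replication time. RT was -2.27 in the satellite bin of chromosome 9 and -2.53 in the first bin of chromosome 11. It was -4.14 in the first assembled bin of chromosome 3, -1.80 in that of chromosome 4 and 1.06 in that of chromosome 17. The bin of the 21-bp repeat on chromosome 16 had an RT of -1.92, and the bin with most copies outside the windows, on chromosome 7, an RT of 2.62. Repeats of this kind are hard to map with short reads, and the part of mapping in these values was not tested. The box bound by the centromere protein CENP-B, searched as NTTCGNNNNANNCGGGN on both strands, was in 20 window bins, or 1.05%, against 1.13% of all autosomal bins. No window bin held more than 1 copy.

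At the edge of the gap the autosomes were mostly late, and they became earlier within 500 kb (see the plot of RT at the ends of the assembled autosomes). The first assembled bin had a mean RT of -1.61 ± 1.36 (SD, 19 autosomes). It was early on 2 of 19 autosomes, chromosome 7 at 1.59 and chromosome 17 at 1.06, where 42.1% of all autosomal bins are early. On the others it lay between -4.14 on chromosome 3 and -0.09 on chromosome 19, a value that 24 other bins shared. The tenth bin, 450 kb further in, had a mean RT of 0.48 ± 2.23 and was early on 12 of 19 autosomes. RT was higher in the tenth bin than in the first on 17 of 19 autosomes, while the last of 10 consecutive bins was above the first in 50.3% of all autosomal stretches of that length. That share is over stretches with any starting RT, so it is not matched to a late first bin. The mean rise was 2.09 ± 1.82. It was largest on chromosome 11, at 5.51, followed by chromosome 8 at 4.77 and chromosome 12 at 4.11. The exceptions were chromosome 14, which fell by 0.55, and chromosome 17, which fell by 0.65. The mean share of soft-masked repeat sequence was 56.8% in the first assembled bin and 38.0% in the tenth. Whether repeats had a part in the low values was not tested.

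The opposite end of the autosomes had the opposite pattern. The last bin on the telomere side was early on 19 of 19 autosomes, with a mean RT of 1.93 ± 0.69 and values from 0.43 to 2.86. The tenth bin from that end had a mean RT of -0.03, and it was above the last bin on 5 of 19 autosomes. Within each of the 19 autosomes the first assembled bin on the gap side had a lower RT than the last bin on the telomere side. The mean difference was -3.54 ± 1.24, and it ranged from -5.74 to -1.06. The mean soft-masked share of the last bins, 43.9%, was below that of the first bins. Along the telomere side, however, this share was higher where RT was high. It was 48.7% in the third bin from that end, at a mean RT of 1.47, and 39.1% in the tenth. The third assembled bin on the gap side had a similar share, 49.7%, at a mean RT of -0.90.

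**Figure D1:**
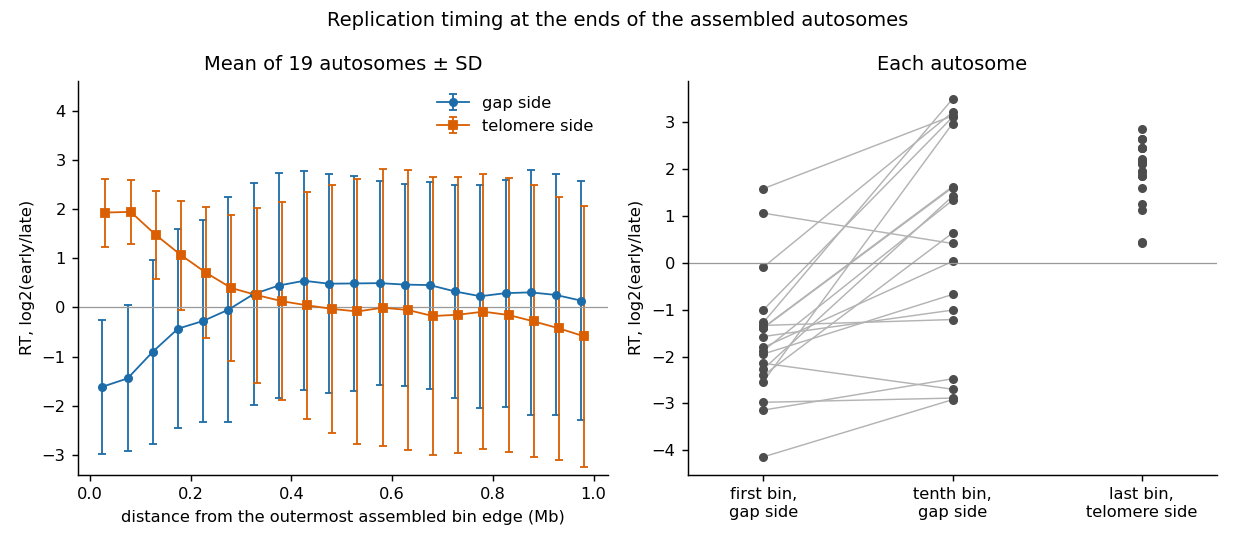
Left, mean RT (log2 early over late) of the outermost 20 assembled bins against distance from the outermost bin edge in Mb, for the gap side (blue circles) and the telomere side (orange squares), with bars for the SD over 19 autosomes. Right, RT of the first and the tenth bin on the gap side, joined for each autosome, and of the last bin on the telomere side: all 19 values at the telomere side lie above 0, and 2 of 19 in the first bin of the gap side do.

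The rise led into early domains on many chromosomes, and their lengths differed widely. Averaged over the first 500 kb, RT was above 0 on 10 of 19 autosomes, against 42.4% of all 500 kb windows tiled along the autosomes. The count was 5 for the first 250 kb, and also 5 for the first 500 kb at a cut of RT 1. The mean over autosomes went from -0.34 ± 1.86 in the first 500 kb to 0.40 ± 2.05 in the next, and then declined to -1.33 ± 2.04 between 4 and 4.5 Mb, where 6 autosomes were above 0. Beyond the windows it was -0.65 ± 1.78 between 5 and 5.5 Mb and 0.10 ± 2.03 between 5.5 and 6 Mb, where 11 autosomes were above 0, so that the level of the steps near the gap was met again there. These means differ by less than their spread over autosomes. At this scale the windows had little in common, as the plot of the 19 windows shows.

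**Figure D2:**
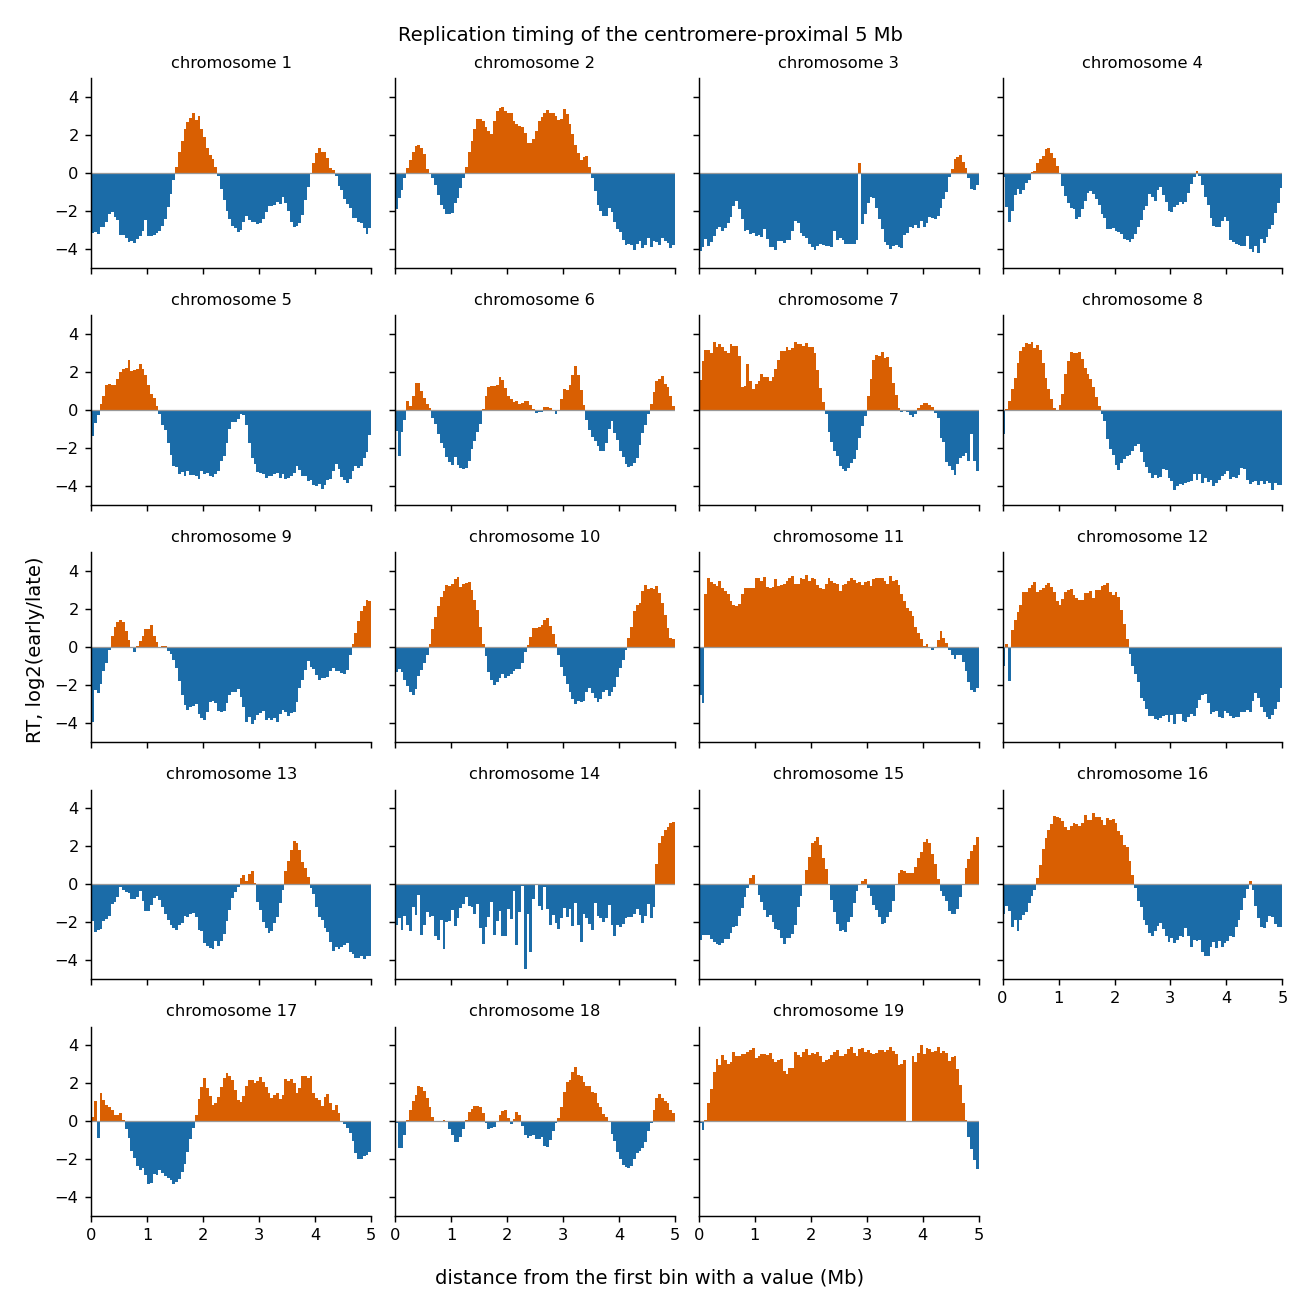
RT (log2 early over late) of each 50 kb bin against distance in Mb from the first bin with a value, one panel per autosome, with early bins in orange and late bins in blue, and blanks at positions without a value. Chromosomes 11 and 19 are early over most of the window, chromosomes 3 and 14 are late over most of it, and most others begin late and turn early within 1 Mb.

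Over the whole 5 Mb the windows had on average nearly the RT of the rest of their chromosomes, but they differed widely from each other. The mean RT of the window minus that of the rest of the same autosome was 0.03 ± 1.24 (SD, 19 autosomes), a value whose sign is not stable: it was 0.64 for the first 2 Mb, -0.045 for the first 10 Mb and -0.14 without chromosome 19. It was below 0 on 9 autosomes and above 0 on 10. The largest deficits were on chromosomes 5 (-1.62), 9 (-1.54) and 4 (-1.51), and the largest excesses on chromosomes 19 (3.15) and 11 (1.73). The mean RT of a window went from -2.71 on chromosome 3 to 3.03 on chromosome 19, with an SD of 1.43, while the means of the rest of the autosomes had an SD of 0.47. A window averages far fewer bins than the rest of a chromosome. The SD of the other 5 Mb windows within an autosome was 1.13 to 2.12, and the proximal window differed from the rest by more than that SD on 3 autosomes, chromosomes 3, 9 and 19. Chromosome 19 alone lay outside the range of its other windows, above all 10 of them. The mean was above 0 on 7 of 19 autosomes, against 36.7% of all 5 Mb windows.

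**Figure D3:**
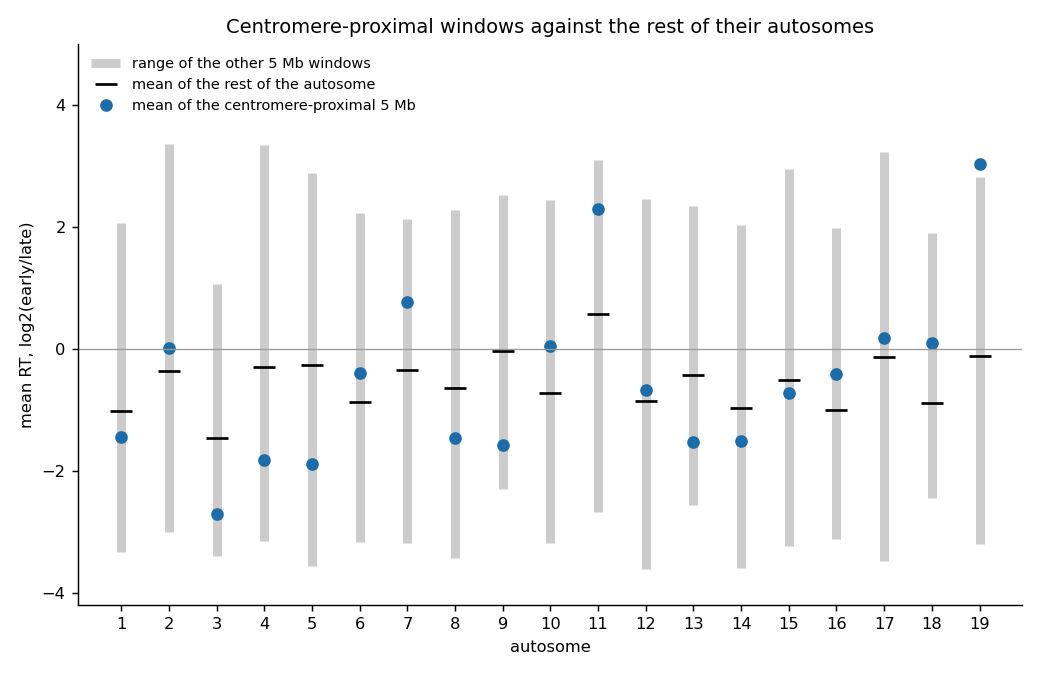
Mean RT (log2 early over late) of the centromere-proximal 5 Mb (blue points) for each autosome, beside the mean of the rest of the autosome (black dashes) and the range of the means of its other 5 Mb windows (grey bars). The proximal window of chromosome 19, at 3.03, is the only point outside its grey bar.

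By bins, the windows held fewer of the latest values and more moderately late ones than the rest. Early bins numbered 761 of 1897, or 40.1% (exact binomial interval 37.9% to 42.4% at a confidence of 95%, for counting error alone and treating neighboring bins as if independent), against 42.1% in the rest. The latest bins, with RT at or below -3, made up 18.3% of the windows and 26.9% of the rest (26.6% of all autosomal bins). Bins between -3 and 0 made up 41.6% and 30.9% (31.4% of all). The earliest bins, with RT of 3 or more, had like shares of 12.9% and 12.3%, the latter also that of all autosomal bins. Values within 1 of 0 were held by 20.9% of window bins and 18.2% of the rest (18.3% of all). Of these 397 window bins 60 were on chromosome 18. In a profile of many cells with both homologs together, replication in the middle of S-phase and a mixture of early and late copies cannot be told apart in such bins. Constant timing regions (CTRs), runs of at least 10 bins whose slope over 5 bins stays at or under 2.5 log2 per Mb, covered 10.6% of window bins and 14.6% of the rest (14.5% of all). On 10 autosomes the window held no CTR bin, and chromosome 19 held most, 47.

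**Figure D4:**
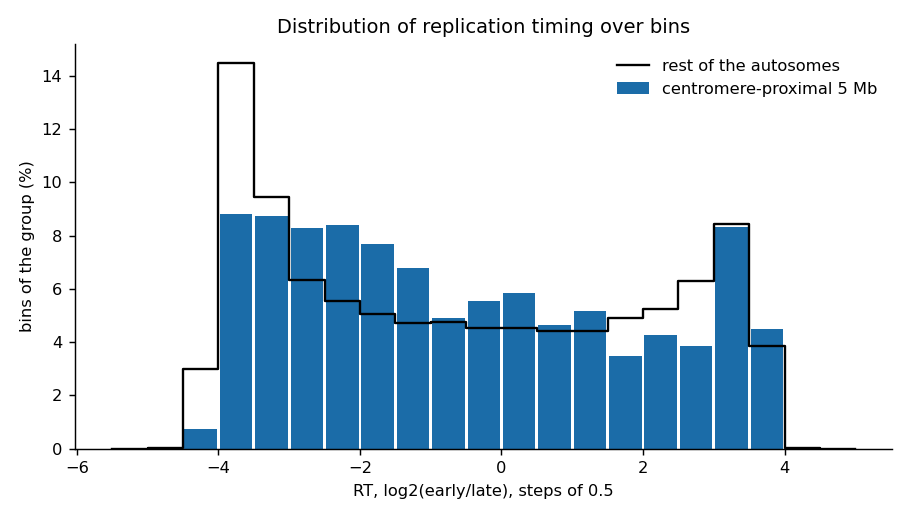
Share of bins (%) in each RT step of 0.5 log2, for the centromere-proximal windows (blue bars) and for the rest of the autosomes (black line). The windows have fewer bins at or below -3 (18.3% against 26.9%) and more between -3 and 0 (41.6% against 30.9%).

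Timing transition regions (TTRs), stretches that join a bin at RT 1 or above to the next one at -1 or below, or the reverse, without missing more than 200 kb, were slightly denser in the windows. Of 1095 autosomal TTRs, 53 were centered there, or 5.59 per 10 Mb against 4.53 in the rest. A window held between 0 TTRs (chromosome 3) and 5 (chromosomes 6, 10, 15 and 18). Their median length was 200 kb in the windows and in the rest. Seen from the gap, the first TTR went from late to early in 15 of the 18 windows with any, and from early to late on chromosomes 7, 17 and 19. The direction of a first TTR is set by whether the first bin at or beyond RT 1 or -1 is early or late. The median distance of this first center from the start of the window was 552 kb. Of the 18 first centers 12 lay within 700 kb, but no share over other stretches of that length was calculated. The shortest distance was 72.4 kb, on chromosome 8, where the TTR ended inside Insr, the insulin receptor gene. TTR centers were intergenic in 35 cases and inside a protein-coding gene in 16, with no share over all positions to compare with. Among these genes, which were named after their values were seen, were Esr1, the estrogen receptor alpha gene, Syne1, which encodes the giant nuclear envelope protein nesprin-1, and Celf2, which encodes an RNA-binding protein. The longest TTR, 900 kb, was at chr11:6950001-7900000, where RT declined slowly from 1.06 to -1.25, and the next, 850 kb, on chromosome 7 was centered in Usp29.

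Between transitions early and late segments alternated. Of the segments cut by TTR centers, 37 ran out of the window at one end or both, so their full length is not measured, and 7 of these were over 3000 kb long inside the window. Lengths of the others are limited by the window of 5 Mb and were not compared with the rest. There were 22 early segments bounded by TTR centers on both sides, with a median length of 919.5 kb and a GC content of 43.7%, and they held 348 gene starts. The 13 late segments bounded in the same way had a median length of 1151 kb, a GC content of 40.4% and 65 gene starts. The longest early segment, 4194 kb on chromosome 11, had a mean RT of 2.93 and 84 gene starts. On chromosome 12 an early segment of 2094 kb had a mean RT of 2.68, on chromosome 16 one of 1762 kb had 2.85, and on chromosome 8 one of 1680 kb had 1.98. These followed a late edge of 158, 598 and 72 kb. Late chromatin took up the remainder of each of these windows, with a mean RT of -3.23 on chromosome 12, -2.33 on chromosome 16 and -3.28 on chromosome 8. The windows of chromosomes 6, 10, 15 and 18 alternated instead, with 6 segments each. On chromosome 18 a segment of 2053 kb stayed close to 0, with a mean RT of -0.24 and values between -1.37 and 0.82.

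Large steps between neighboring bins were more frequent in the windows. A step of at least 1.5 log2 between neighboring bins was found at 21 of 1876 boundaries in the windows, or 1.12%, against 0.246% in the rest (0.28% of all autosomal boundaries). Of these 21 steps 11 were on chromosome 14, and 2, on chromosomes 4 and 9, started from a bin with no assembled base. After a running median over 5 bins 3 steps of this size were found. The largest was on chromosome 11, where RT went from -2.95 at chr11:3150001-3200000 to 2.83 in the next bin, a step of 5.78. The late side holds Sfi1, which encodes a centrosomal protein, and the early side holds the starts of Eif4enif1, which encodes a transporter of the translation factor eIF4E, and, one bin on, of Drg1, a GTP-binding protein gene (RT 3.64). On chromosome 3 a single bin, chr3:5850001-5900000, had an RT of 0.54 between neighbors at -3.53 and -2.66. On chromosomes 12 and 17 pairs of opposite steps lay within 150 kb of the start of the window. The hybrid cells carry 129 and castaneus chromosomes, whereas mm10 is a C57BL/6J assembly, and the part of differences between the strains or of mapping in these steps was not tested.

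The window of chromosome 14 was unlike the other 18. RT had a median of -1.74 and only 7 of 99 bins were early, all next to its far end, where it rose to 3.28 at Dnase1l3, which encodes a secreted DNase. Before that the profile jumped from bin to bin. The median deviation of a bin from its neighbors was 0.46 log2, against 0.12 in the rest of chromosome 14 and between 0.08 and 0.13 in the other windows. The lowest bin of all the windows, -4.50, was here at chr14:5300001-5350000 over the predicted gene Gm3542, beside a bin at -0.09. Soft-masked sequence took 60.2% of the window. Of 101 protein-coding gene starts 96 had provisional Gm names, and 4 of the 101 were early, with a median RT of -1.69. Exact repeats of a value were also more frequent here. Of its 99 bins 3 had an RT that at least 5 other bins shared to within 1e-06, while over all windows this was so of 8 bins (0.422%), and of 0.0563% of all autosomal bins. The other 5 were the bins with no assembled base on chromosomes 4, 6, 17 and 18 and the first bin of chromosome 19, whose value of -0.09 was shared by 24 other bins. Of those 24 bins 19 were on chromosome Y, and the bin of chromosome 18 had the same value. On chromosomes 4, 6 and 17 it was 4 of 5, 5 of 9 and 16 of 20 sharing bins. What produced the repeated values was not tested.

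RT was higher in GC-rich bins, in the windows as in the rest. The GC content of the windows was 41.7% against 41.9% in the rest, and soft-masked sequence took 39.8% against 33.2%, with the window above the rest on 16 of 19 autosomes. Across the 1892 window bins with assembled sequence, which come from 1 profile and adjoin each other, Spearman's correlation of RT with GC content was 0.71. It was 0.74 without chromosome 14 and 0.75 in the rest of the autosomes. Within single windows it went from 0.08 on chromosome 3 to 0.85 on chromosome 8. Across the 19 window means, which come from the same profile, it was 0.83. Heavily repetitive bins, at least 60% soft-masked, made up 11.97% of window bins (227, of which 65 on chromosome 14) and 2.95% of the rest. They were late alike in both places, with 15.4% early in the windows and 15.2% in the rest.

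RT was also set against the value fitted from GC content and protein-coding gene starts by least squares over all autosomal bins, a fit with an R2 of 55.4%. The windows lay 0.14 log2 above the fit on average and the rest -0.01 from it. For the first 2 Mb the value was 0.48 and for the first 3 Mb 0.33, and it was 0.09 without chromosome 11 and 0.23 without chromosome 14. The mean was above the fit on 13 of 19 autosomes, with an SD of 0.60 over autosomes, so that the group mean is small beside its spread. Chromosome 11 lay furthest above, by 1.14, and chromosome 6 next, by 0.81. Chromosome 14 lay furthest below, at -1.48, with a fitted mean of -0.03 and a measured one of -1.51. Its fitted mean counts 101 gene starts, 96 of them with provisional Gm names, and their part in the difference was not tested. Chromosome 19, whose window had the highest GC content (47.7%) and most gene starts (185), had a fitted mean of 2.58 and lay 0.44 above it. Chromosome 3, with the lowest GC content (38.1%) and fewest gene starts (8), had a fitted mean of -2.38.

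**Figure D5:**
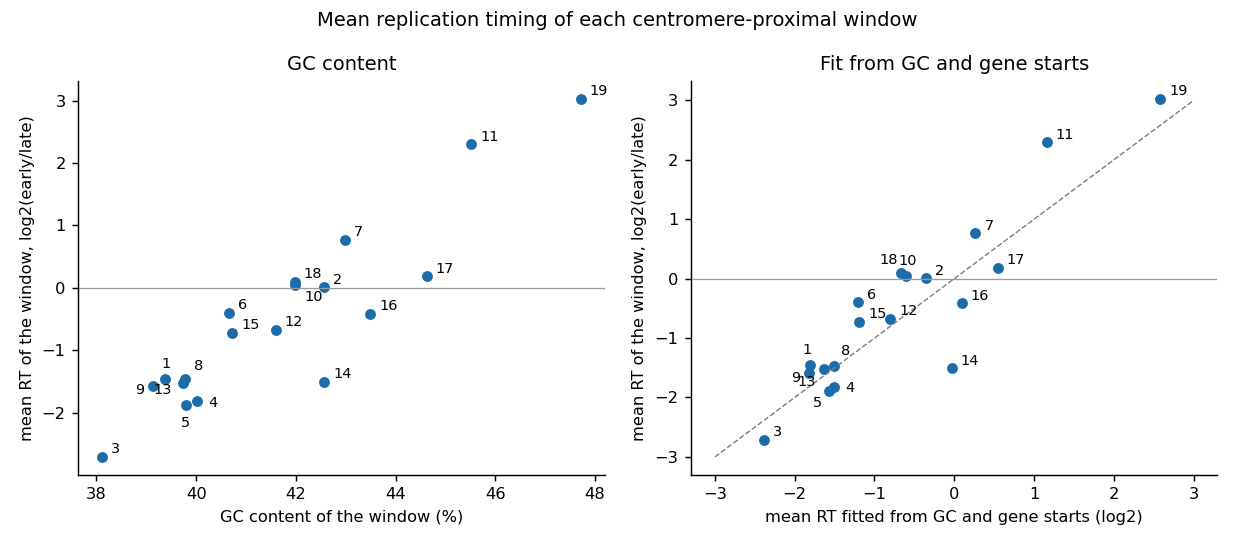
Mean RT (log2 early over late) of each centromere-proximal window against its GC content (%, left) and against the mean RT fitted from GC content and gene starts (log2, right, with the line of equal values dashed), numbered by autosome. Chromosomes 3 and 19 are the extremes of both, and chromosome 14 lies 1.48 below its fitted value.

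Genes in the windows replicated early about as often as other genes, and somewhat more often with chromosome 14 left out. Of 902 protein-coding gene starts 645 were early, or 71.5%, against 74.1% of all autosomal starts. Without chromosome 14 it was 641 of 801. The starts were unevenly spread, and chromosomes 7, 11, 14 and 19 held 55.3% of them. The gene closest to the gap was late on 12 autosomes, among them chromosomes 2 (Fam171a1, -1.30), 3 (Hnf4g, a nuclear receptor gene, -2.66), 15 (Selenop, which encodes the plasma selenium transporter, -2.88) and 11 (Sfi1, -2.95). It was early on 7, among them chromosomes 5 (Cdk6, a G1 cyclin-dependent kinase gene, 1.39), 8 (Insr, 2.5), 12 (Rab10, a membrane traffic GTPase gene, 2.22), 17 (Scaf8, 1.47) and 19 (Mrpl21, a mitochondrial ribosomal protein gene, 2.59). On chromosome 9 it was the predicted gene Gm10722, one of 9 protein-coding annotations that start inside the satellite bin.

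The earliest bin of the window overlapped a protein-coding gene on all autosomes but 4. The share of all autosomal bins that do so was not calculated. This count and that for the latest bin below therefore only describe these bins. On chromosome 19 the peak of 4.0 covered 9 genes, among them Bad, a promoter of apoptosis, and Vegfb, a growth factor gene. On chromosome 2 the peak of 3.51 covered Ucma and Mcm10, which encodes a replication initiation factor. On chromosome 8 it was 3.62 at Mcoln1, the gene of a lysosomal channel, and Pnpla6. On chromosome 11 it was 3.83 at Ap1b1, which encodes an adaptor of clathrin coats, and on chromosome 13 it was 2.29 at Pfkp, the platelet form of phosphofructokinase. The latest bin overlapped none on 10 of 19 autosomes. Where it did, it lay at -4.06 in Celf2 on chromosome 2, -4.19 in Zfp804b on chromosome 5, -3.81 in Rbfox1, a neuronal splicing regulator, on chromosome 16, and -3.24 in Ghr, the growth hormone receptor gene, on chromosome 15.

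Of a list of 52 textbook genes 21 lay in the windows, and 14 of these were early, where 74.1% of all autosomal protein-coding starts are. The early domain of chromosome 11 held Lif, whose product keeps mESCs undifferentiated and was in the medium of these cells (3.69), Nf2, the merlin tumor suppressor gene (3.33), and Xbp1, a regulator of the unfolded protein response (3.37). That of chromosome 19 held Fosl1 (3.65) and Rela (3.57), which encode transcription factors of the AP-1 and NF-kB families, Sf3b2, a splicing factor gene (3.21), and the long noncoding RNA genes Malat1 and Neat1, in a single bin (3.45). Crebbp, a histone acetyltransferase gene on chromosome 16, was at 3.07. Late members included the opioid receptor gene Oprk1 (-2.92) and the autophagy gene Rb1cc1 (-1.73) on chromosome 1, and Zeb1, a driver of the epithelial to mesenchymal transition, on chromosome 18 (-0.83). Sox17, an endoderm transcription factor gene on chromosome 1, was near the middle, at -0.36, while Tcea1, an elongation factor gene close by, was at 2.80. Dync1i1 on chromosome 6 (0.15) and Oxct1 on chromosome 15 (0.46) were slightly above 0.

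Gene families showed the domain structure of the chromosome 7 window, which held most of the chemosensory genes. Vmn1r genes, which encode pheromone receptors of the vomeronasal organ, were late in 10 of 14 cases, with a median of -1.99, while 10.2% of all autosomal Vmn1r genes are early. Along chromosome 7 they traced a valley, from Vmn1r55 at 2.14 through Vmn1r57 at 0.43 and Vmn1r61 at -3.22 to Vmn1r65 at 0.76. Olfr genes, which encode odorant receptors, followed. In the windows 9 of 10 were early, with a median of 1.44, while 17.7% of the 1128 autosomal Olfr genes are early. Of these 10 genes 8 formed a single cluster on chromosome 7, between 2.28 (Olfr1344) and 0.13 (Olfr1350), so that they do not count as separate observations. The imprinted genes Zim1 (-0.05), Peg3 and Usp29 (both -0.08, their starts being in the same bin) stood next to them, within 0.1 log2 of 0. Imprinted genes are expressed from one parental homolog, and the profile does not separate homologs. Vmn2r genes, from the other vomeronasal receptor family, came after them apart from Vmn2r28 (-2.45), which lies in the valley. All 9 were late, with a median of -2.52, the same median as over all autosomal Vmn2r genes, of which 13.4% are early. RT went from -0.14 at Vmn2r29 to -3.44 at Vmn2r33. Zfp genes, mostly of zinc finger transcription factors, were early in 20 of 23 cases (median 2.87, and 91.9% of all autosomal ones). Slc genes of membrane transporters were early in 7 of 10 cases (median 2.73, and 79.3% of all).

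Some clusters outside these families were chosen after their values were seen. The 9 Akr1 aldo-keto reductase genes of chromosome 13 were all late, between -2.41 and -0.61, while 43.8% of the 16 autosomal Akr1 genes are early. The Mmp cluster of matrix metalloproteinases on chromosome 9 ran up a transition, from -1.39 at Mmp3 to 0.16 at Mmp20 and 0.74 at Mmp7, and 7 of 9 were late, while 59.1% of the 22 autosomal Mmp genes are early. The lectin genes of the Cd209 group on chromosome 8 lay on both sides of a dip between early peaks, from 2.49 at Cd209a through -0.01 at Cd209c to 1.93 at Cd209g, and these 7 genes are all those of the group on the autosomes. The de novo DNA methyltransferase gene Dnmt3a lay in the early domain of chromosome 12, at 3.36.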

How the data were processed

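Repli-seq of F121-9 mESCs comprised 4 libraries, 2 per S-phase fraction. The authors scaled reads to RPM within a fraction and deposited log2 ratios, early over late, 1 value per 50 kb bin on mm10. The submitters' processing notes name Bowtie2, SAMtools and bedtools. Whether and how replicates were combined, and whether bins were filtered or smoothed, is not given in the sources used here. No column gave a value per library, so no comparison was tested and depth is unknown. Single-cell data were not analysed here.

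GC content, soft-masked share and repeats were counted on GRCm38.p6, the assembly of mm10, and gene starts from GENCODE vM21. TTRs, CTRs and the fit on GC content and gene starts used all autosomal bins and were tested on simulated profiles. For the noise SD, bins were compared with the average of the bins on either side, and the median size of the deviation was scaled to an SD. Named genes were, on each autosome, the protein-coding gene closest to the gap and those over the highest and lowest bins, prefix families with at least 5 members, and a textbook list. The regions and lists were chosen with earlier results of these data known. Alternatives covered window size, smoothing, the bins next to gaps, medians, the cut between early and late, the limits of states, the fit, and each autosome left out. Calculations used Python 3.11.15 with numpy 2.4.6, pandas 2.3.3, scipy 1.17.1 and matplotlib 3.10.9.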

Additional observations from a re-analysis of the deposited data

How the results depend on the processing

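Of 133 recalculated values, 108 stayed on their side and within the counting interval, 1.5 times a count, 0.05 for a correlation or the noise SD of a bin. The noise SD, 0.136 log2, is larger than the mean difference of 0.03, so it is a wide limit there. Many of the 133 leave out 1 autosome, so the count of 108 is no measure of stability. No paired analysis was possible because each bin has only 1 RT value, with none per replicate or fraction. Leaving out a replicate was not run for the same reason. The mean difference between windows and rest, 0.03, has no stable sign. It was 0.64 with windows of 2 Mb, 0.43 with 3 Mb and -0.045 with 10 Mb, and leaving out each autosome in turn gave -0.14 to 0.13, below 0 without chromosome 7, 10, 11, 18 or 19. The share of early bins was 49.3% at 2 Mb and 46.01% at 3 Mb, 49.1% when early meant above the autosomal median and 29.6% when it meant above RT 1. It was 37.2% to 41.96% with each autosome left out, the lowest without chromosome 19. The first 500 kb was early on 5 autosomes at a cut of RT 1, and the first 250 kb also on 5. TTRs numbered 25, 34 and 118 in windows of 2, 3 and 10 Mb, and 31 with states at RT 2 and -2. The correlation with GC content was 0.66 at 2 Mb. The mean above the fit was 0.48 at 2 Mb and 0.33 at 3 Mb, and 0.09 to 0.23 with each autosome left out. The alternatives for the gap edge were chosen after seeing the data. The first assembled bin was early on 3 autosomes after a running median over 5 bins, and the tenth bin was above it on 17. The counts were 15 with bin 5 or bin 20 in place of the tenth. Steps of 1.5 log2 numbered 3 after the running median and 10 to 21 with each autosome left out, the lowest without chromosome 14. Leaving out the 5 bins with no assembled base changed no count of autosomes.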
